A study of Danio rerio with 11 samples.

Results

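A set of 15 genes had transcripts at 10 cRPKM or more in both adult zebrafish retina libraries, while each stayed under 1 cRPKM in heads at 24 hours post fertilization (hpf) and in all 8 larval eye libraries. cRPKM is the authors' deposited level per gene, an RPKM-type value scaled for a length per gene and for library depth. The genes are 0.276% of the 5434 genes at 10 cRPKM or more in both adult libraries, and 29387 genes had values in all. The genes were chosen by those cRPKM levels, so the step between adult and earlier libraries is described without a test. The set held a pair of green cone opsin genes, 4 globin genes, 2 genes of the major histocompatibility complex (MHC), a complexin gene, genes with the symbols CLN6 and VIM, and 4 genes without a descriptive name.

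The study followed eyes of fish with a mutated eMIC domain of srrm3, a splicing regulator of neuronal microexons, and of their wild-type (WT) siblings. Polyadenylated RNA came from 24 hpf WT heads of the AB strain, from mutant and from WT eyes of 4 stages, namely 48, 60 and 72 hpf and 5 days post fertilization (dpf), and from WT adult retinae, each sample being a pool. Each of these had 1 library except the adult retina, which had 2; 5 retinae were pooled for adult samples, 20 eyes at 5 dpf and 20 to 60 eyes at 48 to 72 hpf, per the labels' protocols. Whether the adult replicates are separate fish is not stated, and the sources used here give neither age nor strain of the adults.

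Library totals ranged from 37724575 to 92560511 counts. Only the 5 dpf and adult libraries are labelled as stranded, and adult RNA came from dissected retina where larval RNA came from eyes, so stage, tissue and library set cannot be told apart for adult against 48 to 72 hpf. Adult and 5 dpf libraries share a set, but stage and tissue cannot be told apart between them either, which holds for every adult to 5 dpf ratio below. With the strain of the adults not given, a difference of strain cannot be told apart from these in any comparison with the adults. The adult libraries carried the transcripts of the labelled tissue: the rod phototransduction list summed to 36160 and 48929 cRPKM in adult replicates 1 and 2, and the lens list to 17.93 and 15.01. They also carried transcripts of other tissues, mostly in replicate 1. The skin and cornea epithelium list summed to 8940 and 605.7 cRPKM in replicates 1 and 2, and skeletal muscle to 1830 and 169.15. In bulk RNA, fewer cells of a type and less RNA per cell cannot be told apart.

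As background, zebrafish cones use several green opsins of the RH2 class that lie in a tandem array and are switched on one after another as the retina grows at its margin. Red blood cells change from embryonic to adult globin chains during larval life. MHC class I molecules present peptides on most cells, and class II molecules do so on antigen-presenting cells such as macrophages, dendritic cells and B cells, a system that matures after the larval stages. Complexins regulate the fusion of synaptic vesicles, and retinal forms act at the ribbon synapses of photoreceptors and bipolar cells.

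**Figure D1:**
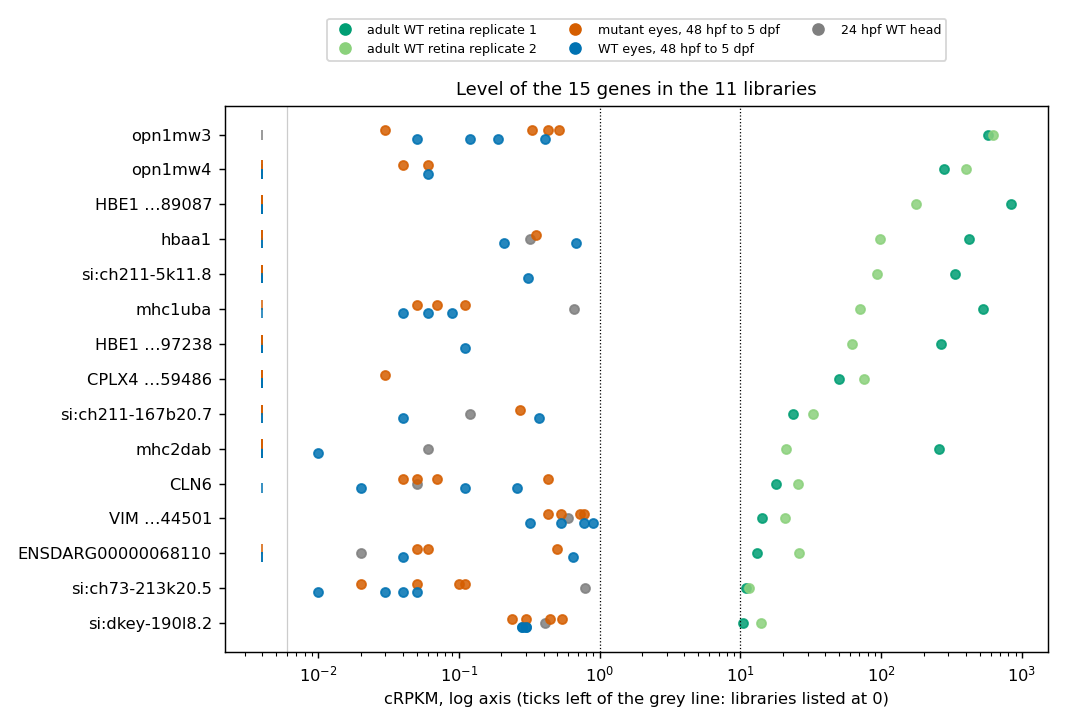
Level of each of the 15 genes (rows, ordered by the lower adult value) in the 11 libraries on a log axis of cRPKM; each point is 1 library, ticks at the far left mark libraries listed at 0, and the dotted lines stand at 1 and 10. Adult points lie between 10.36 and 835.12 and all other points at 0.9 or below, as the selection requires.

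The genes were not all silent before adulthood. Only HBE1 ENSDARG00000089087 had 0 counts in all 9 head and larval eye libraries. The other 14 had reads in at least 1 of them, 3 had reads in all 9, and 7 genes, HBE1 ENSDARG00000089087 included, had at most 10 counts summed over the 9. The libraries with the most member genes detected before adulthood were the 5 dpf WT eyes, with 12, and the 5 dpf mutant eyes, with 10. These were also the deepest early libraries, at 72300388 and 90039615 counts against 37724575 to 48209161 in the others. Over all 29387 genes they had reads for 24950 and 25640, against 23922 to 24365 in the other early libraries. For the number of member genes detected, 5 dpf therefore cannot be told apart from depth. "First seen in adult retina" is therefore a statement about a level under 1 cRPKM for 14 of the 15.

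The opsin genes opn1mw3 and opn1mw4 had the highest lower adult values of the set. opn1mw3, which encodes a green cone opsin, was listed at 0 cRPKM in the 24 hpf head. Mutant eyes then had 0.03, 0.51, 0.33 and 0.43 cRPKM at the 4 successive eye stages, WT eyes 0.05, 0.19, 0.12 and 0.41, and adult replicates 1 and 2 569.91 and 622.04. At 48 hpf its trace was only 1 count in mutant and 2 counts in WT eyes, too few to date an onset. At 5 dpf the trace was at a similar level in both genotypes and rested on 34 counts in mutant and 26 in WT eyes. opn1mw4, the last gene of the array, was listed at 0 in the head and in 5 of the 8 larval eye libraries, reached at most 0.06, and had 279.91 and 400.7 cRPKM in the adult retinae.

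The adult mean of opn1mw3 was 595.98 ± 36.9 cRPKM and that of opn1mw4 340.3 ± 85.4 (SD, n = 2 libraries). These are 1470 and 5456 times the levels in 5 dpf WT eyes, where opn1mw4 had only 4 counts. The adult replicates differed by 1.09-fold for opn1mw3 and 1.43-fold for opn1mw4, with the higher value in replicate 2 for both.

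The other members of the array had started earlier. At 5 dpf, opn1mw1 stood at 583.92 cRPKM in mutant eyes against 5761 in WT eyes, with 124.51 and 249.21 in the adult retinae, so it was lower in adult retina than in the 5 dpf WT library. For opn1mw2 the 5 dpf levels were 166.16 in mutant eyes and 112.33 in WT eyes, with 2656 and 2090 in the adults. opn1mw3 and opn1mw4 together made up 23.4% and 30.4% of the summed green opsin cRPKM in adult replicates 1 and 2. In RefSeq gene order (assembly GRCz12tu, used for order only) opn1mw3 lies between opn1mw2 and opn1mw4. The implied gene length, taken from the ratio of counts to cRPKM, was 887 bases for both, against 1365 for opn1mw1 and 1452 for opn1mw2; near-identical opsin copies could share reads, so their single values are uncertain.

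The red opsin gene opn1lw1 shows how narrowly the set is drawn. It was at 0.14 cRPKM or below in the head and in all eyes up to 72 hpf, but reached 22.73 in mutant eyes and 11.33 in WT eyes by 5 dpf, then 1420 and 1176 in adult retinae, and so was not a member. Of the 10 genes matched by the list of visual opsins, 9 could be tested for change with age in the larval eyes and 4 rose, with none falling (quasi-likelihood F test of edgeR, adjusted after Benjamini and Hochberg). Over all 21829 genes tested 19% rose and 18.2% fell. opn1mw2 rose by 5.403 ± 1.03 log2 units (SE, adjusted p = 0.00561, edgeR) and opn1lw1 by 7.98 ± 0.60 (adjusted p = 0.000363) for each doubling of age. For opn1lw1 the values above show a step between 72 hpf and 5 dpf and not an even rise. Age and library set cannot be told apart for the 5 dpf pair, here and for every age slope given below. Over all genes 8140 were called for age, and 681 without the 5 dpf pair.

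**Figure D2:**
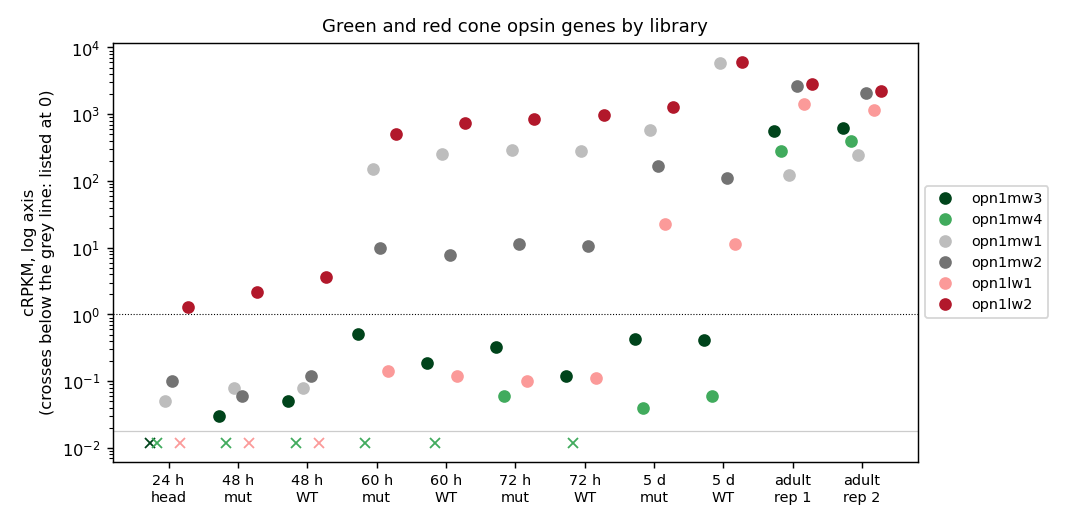
cRPKM of the 4 green (opn1mw) and 2 red (opn1lw) cone opsin genes in each library, on a log axis, with libraries from 24 hpf to adult and mutant left of WT; crosses mark libraries listed at 0. opn1mw3 and opn1mw4 stay below the dotted line at 1 through 5 dpf and stand at 279.91 to 622.04 in the adult libraries.

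The 4 globin genes reached the highest single level of the set. HBE1 ENSDARG00000089087 had 835.12 and 177.27 cRPKM in adult replicates 1 and 2 and 0 counts in every earlier library. Its adult mean was at least 2123-fold higher than the level that 3 counts would give in 5 dpf WT eyes. The symbol HBE1, a human β-type globin name, is shared by 5 identifiers here, so each is given with its identifier.

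HBE1 ENSDARG00000097238 had 267.39 and 62.47 cRPKM in the adults and 1 count, in 5 dpf WT eyes, before. hbaa1, an adult α-globin gene, had 420.74 and 98.06 in the adults and 5 counts over the 9 earlier libraries. si:ch211-5k11.8, which RefSeq lists with the synonym hbaa1.2, had 334.77 and 93.12 in the adults and 1 count, in 48 hpf WT eyes. Each globin gene was 3.60 to 4.71 times higher in adult replicate 1 than in replicate 2.

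These values rest on short implied lengths. The implied lengths were 174, 124, 65 and 71 bases for HBE1 ENSDARG00000089087, HBE1 ENSDARG00000097238, hbaa1 and si:ch211-5k11.8, the 4 shortest of the set. A single read was worth 0.408 cRPKM for hbaa1 in the 72 hpf WT library, so that its value under 1 allowed at most 2 reads there. A count of 0 in 5 dpf WT eyes allowed up to 0.584 cRPKM for si:ch211-5k11.8 and up to 0.238 for HBE1 ENSDARG00000089087, by counting error only. Reads of near-identical globin copies could be shared or dropped, so the levels of single globin genes are uncertain.

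Summed over the 11 other globin genes the level ran the opposite way, though not for each gene. It was 11527 cRPKM in the 24 hpf head. It was 5003, 3474, 3322 and 750.4 cRPKM in mutant eyes and 5660, 1892, 3962 and 676.72 in WT eyes, from 48 hpf to 5 dpf, and 110.4 and 19.53 in the adult retinae. Of these adult sums hbaa2 held 54.93 and 9.36, HBE1 ENSDARG00000069734 45.92 and 8.25, and the embryonic α-globin gene hbae4 9.3 and 1.82, while the other 8 genes were at 0.09 or below. The 4 globin members summed to 0.99 or below before adulthood and to 1858 and 430.92 in the adults. There they were 94.4% and 95.7% of the cRPKM of the 15 globin genes counted here. Those 15 were matched by globin symbols, with si:ch211-5k11.8 added by name, so globin genes under other names were not counted. Short implied lengths make these sums and shares uncertain. Among the other globin genes hbae1.2 had 4 bases and HBE1 ENSDARG00000087390 10, with 513.37 and 2132.32 cRPKM in the head. hbae3 and hbbe3, with 436 and 476 bases, had 4988.31 and 3629.09 cRPKM there and 0.07 or less in the adults. In larval eyes the embryonic α-globin gene hbae3 fell by 2.01 ± 0.47 on the log2 scale for each doubling of age (adjusted p = 0.0119, edgeR). The embryonic β-globin gene hbbe3 fell by 8.75 ± 1.33 (adjusted p = 0.00237, same test). Of the 9 globin genes with enough reads for this test 8 fell and 0 rose, and the ninth, HBE1 ENSDARG00000045143, had a slope of 0.26 ± 0.37 (adjusted p = 0.607).

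Just outside the set stood hbaa2 and HBE1 ENSDARG00000069734, which were at most at 0.1 and 0.09 cRPKM before adulthood. Both missed the level of 10 in replicate 2 alone. In RefSeq order hbaa1 lies between ba1l and hbba1, and si:ch211-5k11.8 between hbba1 and the embryonic hbbe1.1.

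**Figure D3:**
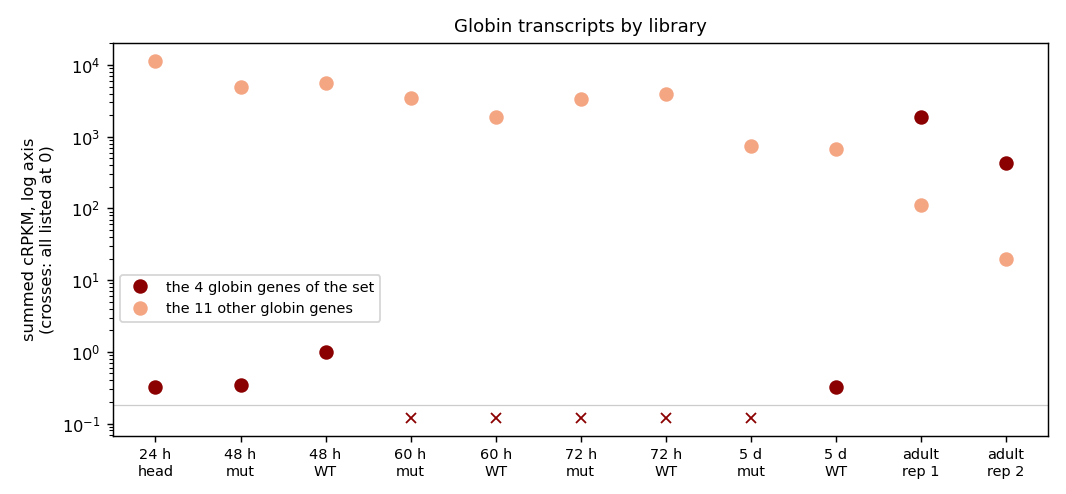
Summed cRPKM of the 4 globin genes of the set (dark) and of the 11 other globin genes (light) in each library, on a log axis, with mutant left of WT at each stage; crosses mark sums of 0. The sum of the other globins is lowest in the adult libraries, at 110.4 and 19.53, most of it from hbaa2 and HBE1 ENSDARG00000069734, and the 4 genes of the set sum to 1858 and 430.92 there.

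Of the MHC genes, mhc1uba, a class I gene of the classical U lineage, had 527.79 and 70.49 cRPKM in adult replicates 1 and 2. Before that its highest value was 0.66 in the 24 hpf head, on 59 counts, and the larval eyes had 0.11 or less. mhc2dab, a class II β-chain gene, had 255.94 and 21 cRPKM in the adults and only 4 counts in all earlier libraries, of which 3 were in the head. The adult replicates were far apart for both genes, by 7.49-fold for mhc1uba and 12.2-fold for mhc2dab, the widest of the set.

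Partner genes of the class II pathway did not all have this time course. mhc2daa, the class II α-chain gene, had 219.82 and 20.69 cRPKM in the adults, while 5 dpf mutant eyes had 1.28 and 5 dpf WT eyes 1.36, which kept it out. cd74a, which encodes the invariant chain that escorts class II molecules, had 546.38 and 85.21 in the adults, against 1.77 in 5 dpf mutant eyes and 0.72 in 5 dpf WT eyes. cd74b had 308.55 and 32.44 in the adults, against 2.17 and 1.1 in the same mutant and WT libraries. mhc2bl had 11.65 and 0.63 in the adults and at most 0.03 before, and ciita, which encodes the master regulator of class II genes, 2.68 and 0.47 against at most 0.15. The cathepsin S genes, whose products trim the invariant chain, were already on: ctss2.1 had 9.36 and 1.63 in the adults and 32.46 in the head, and ctss2.2 7.73 and 1.38 in the adults and 18.04 in 5 dpf mutant eyes. mhc2dga and mhc2dgb were listed at 0 in both adults. The class II list of 9 matched genes, mhc2dab included, summed to 1142 and 142.76 cRPKM in the adults and to 4.79 to 34.7 in the earlier libraries.

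In the larval eyes 3 of the 5 class II list genes with enough reads rose with age and 0 fell, and of the class I list 11 of 18 rose and 0 fell (the same edgeR test). The class I gene mhc1zba rose by 1.92 ± 0.35 on the log2 scale for each doubling of age (adjusted p = 0.00430, edgeR). It reached 57.91 cRPKM in 5 dpf mutant eyes and 22.45 in 5 dpf WT eyes, then 217 and 23.73 in the adults. mhc1uba and mhc2dab had too few larval reads to be tested. In RefSeq order mhc1uba lies between tapbp.2, whose product loads peptide onto class I molecules, and the proteasome subunit gene psmb13a.

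The 15 genes split by which adult library was higher. All 6 globin and MHC genes were higher in replicate 1, by 3.60-fold to 12.2-fold with a median of 4.50-fold, where 39.3% of all 5434 genes at 10 cRPKM or more in both adult libraries were higher in replicate 1. The other 9 were higher in replicate 2, by 1.04-fold to 1.97-fold with a median of 1.43-fold. Of the 15, 5 were at least 4-fold higher in replicate 1 and 0 in replicate 2. Among the 5434 genes, 1.25% were at least 4-fold higher in replicate 1 and 0.0184% in replicate 2. The median gene had a log2 ratio of replicate 1 to replicate 2 of −0.09, with an SD of 0.60.

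Transcripts of other tissues differed between these 2 libraries as well. With the 15 genes left out, 12 of the 25 marker lists were at least 2-fold higher in adult replicate 1 by summed cRPKM and 0 in replicate 2. The skin and cornea epithelium list summed to 8940 cRPKM in replicate 1 and 605.7 in replicate 2, higher in replicate 1 for 17 of 18 genes, with cyt1 at 0 and 0.05. Skeletal muscle summed to 1830 and 169.15, higher for 13 of 13 genes. Cartilage, bone and sclera stood at 240.39 and 23.42, higher for 11 of 13, and endothelium at 64.3 and 17.36, higher for 14 of 15.

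Blood cell lists were part of this difference. T and NK cell genes summed to 107.17 in replicate 1 and 12.21 cRPKM in replicate 2, with 19 of 21 higher in replicate 1 and 7 of 21 under 1 in both. B cell and immunoglobulin genes summed to 68.41 and 13.68, with 15 of 16 higher in replicate 1 and 8 of 16 under 1 in both. Without their top genes the lymphocyte ratios were smaller, 7.50 for T and NK cells without trbc1 and 3.86 for B cells without ighm. The list of adult globin and red cell genes, without its member hbaa1, summed to 328.36 and 237.43, with 9 of 11 higher in replicate 1. The carbonic anhydrase gene cahz held 194.54 and 198.91 of these sums, and the remaining 10 genes summed to 133.82 and 38.52. alas2, the first enzyme of haem synthesis in red cells, had 16.64 and 3.83. The microglia and macrophage list summed to 1257 and 839.69, with 23 of 27 higher in replicate 1. apoeb, an apolipoprotein E gene, held 941.44 and 719.55 of these sums, and the remaining 26 genes summed to 315.56 and 120.14.

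Rod and bipolar lists lay the other way, as the rod sums above show. Bipolar and horizontal cell genes summed to 921.32 in replicate 1 and 1362 in replicate 2. Cone phototransduction genes summed to 44987 and 48712, a ratio of 0.92, and the median gene above was likewise slightly lower in replicate 1. The part of these other transcripts in the levels of the globin and MHC genes was not tested.

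With replicate 1 alone deciding the adult level, the set would hold 41 genes. The 26 added ones include lymphocyte genes: the immunoglobulin heavy chain gene ighm had 24.52 cRPKM in replicate 1 and 2.32 in replicate 2, cd8b 20.69 and 0.23, the T cell receptor gene trbc1 20.68 and 0.68, and the T cell kinase gene lck 10.24 and 0.35. They also include bglap, the bone protein osteocalcin, at 56.29 and 1.84. With replicate 2 alone the set would hold 20 genes, and the 5 added ones, zgc:110699, FABP1 ENSDARG00000019357, si:ch211-181p1.1, eef1a2 and ENSDARG00000098360, lay between 5.99 and 9.98 cRPKM in replicate 1.

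**Figure D4:**
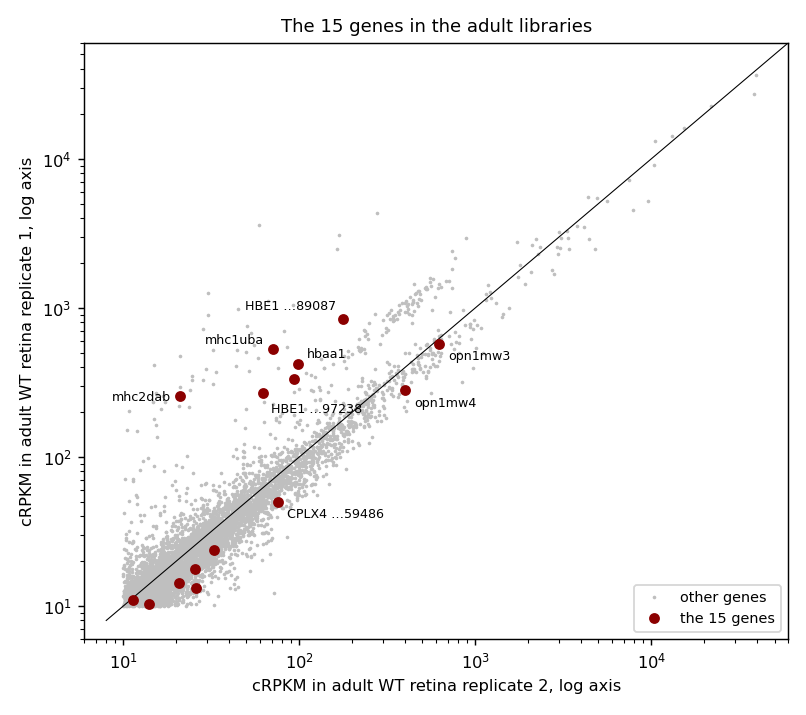
cRPKM of all 5434 genes at 10 or more in both adult libraries, replicate 1 (vertical) against replicate 2 (horizontal) on log axes, with the 15 genes in dark red and equal levels on the line. The 6 globin and MHC genes lie above the line by 3.60-fold or more, and the other 9 lie below it by less than 2-fold.

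**Figure D5:**
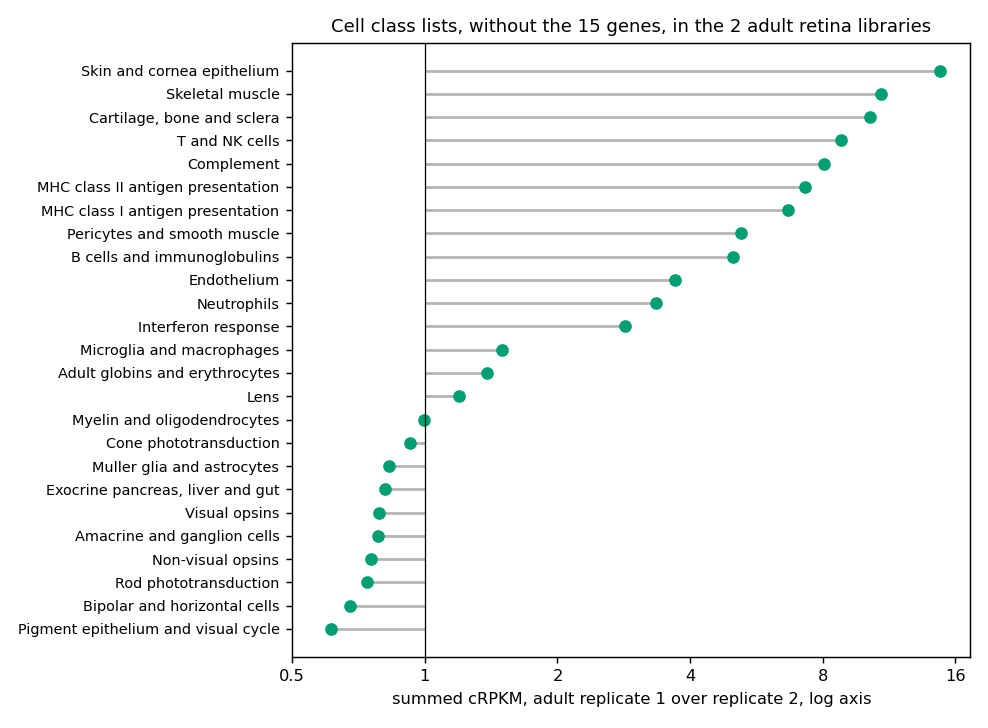
Summed cRPKM of each of the 25 marker lists, with the 15 genes left out, in adult replicate 1 divided by that in replicate 2, on a log axis; each point is 1 list and the vertical line marks equal sums. Skin and cornea epithelium, skeletal muscle, and cartilage, bone and sclera stand at 14.8, 10.8 and 10.3, while 10 lists lie below 1.

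CPLX4 ENSDARG00000059486, a complexin gene, had 49.84 and 75.69 cRPKM in adult replicates 1 and 2 and a single count before, in 5 dpf mutant eyes. Its adult mean of 62.8 ± 18.3 cRPKM (SD, n = 2 libraries) was at least 484-fold above the level of 3 counts in 5 dpf WT eyes. The implied length of this gene was 320 bases. Some other complexin genes were on well before, and others stayed low up to 72 hpf. The second gene with the symbol CPLX4, ENSDARG00000059978, had 79.55 cRPKM in 5 dpf mutant eyes, 174.94 in 5 dpf WT eyes, and 266.76 and 238.56 in the adults. It rose by 4.19 ± 1.301 on the log2 scale for each doubling of age in larval eyes (adjusted p = 0.0365, edgeR). cplx4c had 1.74 in 5 dpf mutant eyes, 16.85 in 5 dpf WT eyes, 1.74 or less in the libraries before, and 130.83 and 153.9 in the adults. CPLX3 ENSDARG00000099196 had 1.45 or less up to 72 hpf, 4.73 in 5 dpf mutant eyes, 4.94 in 5 dpf WT eyes, and 18.69 and 18.05 in the adults.

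CLN6, whose human counterpart encodes a membrane protein of the endoplasmic reticulum that is mutated in a neuronal ceroid lipofuscinosis, had 17.76 and 25.7 cRPKM in the adults. Before that it was at 0.05 in the head, at 0.05, 0.07, 0.04 and 0.43 in mutant eyes from 48 hpf to 5 dpf, and at 0, 0.11, 0.02 and 0.26 in WT eyes. The related gene cln6a was present throughout, with 6.77 to 10.8 in the head and larval eyes and 14.71 and 18.24 in the adults. In both adult libraries CLN6 stood above cln6a on this length-scaled measure.

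ENSDARG00000068110, which has no symbol, had 13.21 and 26.01 cRPKM in the adults, 0.5 in 5 dpf mutant eyes, 0.65 in 5 dpf WT eyes, and 0.06 or less before. si:ch211-167b20.7 had 23.73 and 32.74 in the adults, 0.27 in 5 dpf mutant eyes, 0.37 in 5 dpf WT eyes, 0.12 in the head and 0.04 or less in the other eyes. These 2 genes and CLN6 share an early trace that was highest at 5 dpf in both genotypes.

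VIM ENSDARG00000044501, named for the intermediate filament protein vimentin, had between 0.32 and 0.9 cRPKM in all 9 earlier libraries and 14.17 and 20.72 in the adults. The other gene with this symbol, ENSDARG00000010008, had 32.48 to 119.67 in the earlier libraries and 37.28 and 33.9 in the adults. Vimentin is a filament of Müller glia, and VIM ENSDARG00000044501 is the only member found in the list of Müller glia and astrocyte genes, which with it summed to 206.99 and 253.67 in the adults and to 152.9 to 426.24 before. si:dkey-190l8.2 had the longest implied length, 6520 bases, and therefore 1091 early counts at no more than 0.54 cRPKM. Its adult values were 10.36 and 14.06, and the value in replicate 1 was the closest of the set to the limit of 10.

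si:ch73-213k20.5 had 10.92 and 11.41 cRPKM in the adults, the closest pair of the set, and its highest early value was in the head, at 0.78 on 38 counts. The eyes had 0.11 or less. Near the limit of 1 for the earlier libraries the genes just inside were VIM ENSDARG00000044501 at 0.9, si:ch73-213k20.5 at 0.78 and hbaa1 at 0.68, and those just outside were alkal2b at 1.06, mstnb at 1.35, and mhc2daa and GUCA1A ENSDARG00000101567, both at 1.36. Near the limit of 10 for the adults the genes just inside were si:dkey-190l8.2, si:ch73-213k20.5 and ENSDARG00000068110, with lower adult values of 10.36, 10.92 and 13.21. Those just outside were zgc:110699 at 9.98, hbaa2 at 9.36 and FABP1 ENSDARG00000019357 at 8.85.

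The early traces differed in how they ran with age over the 8 larval eye libraries. The selection held every gene under 1 cRPKM in each of these libraries and so limited how far any could climb, and the slopes are therefore a description with no test. Only 5 of the 15 genes passed the filter on low counts. On the log2 scale, for each doubling of age, the fitted slope was 4.61 ± 0.74 for ENSDARG00000068110 and 2.45 ± 0.68 for CLN6 (SE over the 8 libraries). It was 1.42 ± 0.70 for opn1mw3, 0.65 ± 0.32 for VIM ENSDARG00000044501 and 0.35 ± 0.26 for si:dkey-190l8.2. Without the 5 dpf pair neither ENSDARG00000068110 nor CLN6 had enough reads to be fitted, and age and library set cannot be told apart between 5 dpf and the earlier stages.

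Mutant and WT eyes were compared within stage over the same 8 libraries. The selection kept out any gene at 1 cRPKM or more in either genotype. Genes with a wide genotype gap were thus removed beforehand, which limits what a count of 0 can show. Of the 5 genes tested 0 differed between genotypes in edgeR, 0 had an unadjusted p under 0.05, and DESeq2 and limma also called 0. Over all genes 0.00458%, which is 1 gene, were higher in the mutant and 0% lower. That gene is in the list of exocrine pancreas, liver and gut genes. This list summed to 5920 cRPKM in 5 dpf mutant eyes and 65.78 in 5 dpf WT eyes. The part of such transcripts in the genotype values was not tested. The log2 difference was 0.51 ± 0.49 for opn1mw3 (SE, adjusted p = 0.884), 0.39 ± 0.60 for CLN6 (0.918), −0.15 ± 0.25 for VIM ENSDARG00000044501 (0.923), −0.14 ± 0.70 for ENSDARG00000068110 (0.977) and 0.19 ± 0.22 for si:dkey-190l8.2 (0.895). At these levels a genotype difference of the size of these errors was not detectable. No adult mutant library was analysed, so the set cannot be compared between genotypes at the stage where it is expressed.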

How the data were processed

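The authors deposited 1 file per library with a whole-number read count and a cRPKM (an RPKM-type value) for each of 31848 Ensembl identifiers, made on build danRer10 per the submitters' processing notes. Of these 2461 had no value and 29387 were used. Not given in the sources used here: the aligner, counter, strand setting and what the c in cRPKM corrects. Overlapping genes and near-identical paralogs are therefore uncertain. Implied lengths are counts divided by cRPKM and library total. Symbols came from a gene name table (87.4% of genes, many in the human form); 7 members matched RefSeq by symbol. Members and lists were chosen with earlier results of these data known. Of 535 list symbols 372 matched.

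Counts of the 8 larval eye libraries were tested with edgeR 4.0.16 in R 4.3.3 (TMM, filterByExpr, robust quasi-likelihood F test, Benjamini-Hochberg adjustment over all genes, threshold 0.05) for genotype with stage as a factor, and for slope per log2 hours with genotype as a term, siblings entering as independent. SE is the absolute change divided by the square root of F. Each larval genotype and stage had 1 library, so no replicate pools entered the error term. P-values rest only on how far these pooled samples depart from the fitted terms. Alternatives used DESeq2 1.42.0, limma 3.58.1 (pseudocounts 1 and 0.1), RLE scaling, no filter, and each stage left out. The tests were also run on simulated counts with a fixed dispersion and no change between libraries beyond a planted one. Those counts are simpler than these data and cannot show how often the tests err here. Limits for 0 counts use 3 counts. Named genes are every member, list genes beside them and the 3 nearest each threshold; comparison genes of the same families were chosen after their values were seen. Sequences are not shown here.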

Additional observations from a re-analysis of the deposited data

How the results depend on the processing

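The set of 15 genes depends on its limits and on adult replicate 2. It held 8 genes with the earlier limit at 0.5 cRPKM, 30 with it at 2, and 28 with the adult limit at 5. Without the requirement at 5 dpf it held 67. Leaving out an adult replicate gave 20 to 41 genes, the latter without replicate 2. Counts within 1.5 times were 10 at an adult limit of 20, 19 on TMM-scaled cRPKM (with hbaa2 and HBE1 ENSDARG00000069734 added) and 18 with only the 5 dpf limit. Having at most 3 counts in every earlier library held for 6 members, against 1 with 0 counts.

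Members called for genotype were 0 under every setting run, though DESeq2 gave an adjusted p to only 2 of the 14 it tested. The selection kept genes with a wide genotype gap out of the set, which limits what this 0 can show. Genes called for genotype, 1 by edgeR, were 45 by DESeq2, 0 by limma at either pseudocount, 3 without the filter, 0 without the stage factor, and 0 to 4 with 1 stage pair left out. Members past the threshold for age were 2 of the 5 fitted, where 19% of all genes tested rose and 18.2% fell. The selection constrains these slopes, so the count is a description and not a result about the members. It was 0 without a genotype term, where the filter removed both, 3 without the filter (si:ch211-167b20.7 added) and 0 to 3 with 1 pair left out. Genes called for age, 8140 in the fit as described, were 681 to 7910 with 1 pair left out, the lowest without the 5 dpf pair. The genotype differences that changed sign were VIM ENSDARG00000044501 (0.017 by limma at pseudocount 0.1) and ENSDARG00000068110 (0.46 by DESeq2 and 0.11 by limma at 0.1), none called; the cause was not tested. The genotype fit was itself blocked by stage. Beyond that block, by replicate number, no paired analysis was possible because only the adult samples carry such numbers.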
